A study of Homo sapiens with 4 samples.

Results

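The transcriptome of HT-1080 cells carrying a guide against protein kinase A (sgPKA) was compared directly with that of HT-1080 cells carrying a guide against ALKBH5 (sgALKBH5). Genes entered the comparison by level alone, with no regard to how they differed. Of the 20323 genes in the deposited table, 11629 had a mean of at least 1 TPM (a level scaled for transcript length and library size) over all 4 libraries. These 11629 genes make up the comparison, which rests on 2 of the 4 libraries of the series.

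Each library held polyadenylated RNA of HT-1080, a human fibrosarcoma line widely used to study ferroptosis, a form of cell death driven by iron and lipid peroxidation. The genotypes were sgPKA (1 library), sgALKBH5 (1 library) and sgNC (2 libraries, titled as controls and called control 1 and control 2 here), and the labels name no drug or other treatment for any of them. The series title links PKA to ferroptosis through ALKBH5 and the m6A mark on the GPX4 transcript. The labels do not say which PKA subunit was targeted, with which editor, whether a line was a clone or a pool, or whether the controls were separate cultures.

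PKA is a kinase whose regulatory subunits hold its catalytic subunits inactive until cyclic AMP binds. Once free, the catalytic subunits phosphorylate many proteins, among them CREB, a transcription factor of immediate early and metabolic genes. ALKBH5 is an enzyme that removes the methyl group of N6-methyladenosine (m6A) from RNA in the nucleus, a mark laid down by a complex of METTL3 and METTL14 and known to bear on splicing, export and decay of messenger RNA.

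Total counts were 14050867 in sgPKA, 25937347 in sgALKBH5, 18469299 in control 1 and 18522402 in control 2. With 1 library per guide no difference between the guides has a replicate check, so sizes are given with no p-value, and the sgPKA library is the shallower of the pair. A pooled fit in which the spread came from the controls alone called 0 of 13061 genes (0%) between the guides with edgeR's quasi-likelihood test, of which 1521 had an unadjusted p under 0.05, and limma on log2(TPM + 1) also called 0, while DESeq2 called 311 of 12048 (2.58%), 77 higher and 234 lower in sgPKA. Of 10 mesenchymal markers, 8 passed the TPM minimum, with a sum over all 10 between 9124 and 12514 TPM per library, most of it VIM. Of those 8, 7 were lower in sgPKA than in sgALKBH5, 4 at least 2-fold, with a median of -0.93 in log2(TPM + 1). Sums were at most 1.20 TPM for endothelial markers, 0.225 TPM for hepatocyte markers and 7.21 TPM for epithelial markers. CD68, which lysosomes of many cells hold, was the one leukocyte marker above 2 TPM, and PTPRC was at most 0.043 TPM, while EPCAM, ALB and TTR were at 0 in all libraries. In bulk RNA, fewer cells of a kind and less RNA per cell cannot be told apart.

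The targeted genes were examined first. PRKACA, the main catalytic subunit of PKA (chromosome 19, 14091688 to 14117762, GRCh38.p14), had 10.6 TPM in sgPKA and 70.9 TPM in sgALKBH5, while control 1 had 60.5 TPM and control 2 had 70.1 TPM. The sgPKA library stood apart below the other 3, and the difference between the guides was -2.63 in log2(TPM + 1), sgPKA minus sgALKBH5. ALKBH5 (chromosome 17, 18183828 to 18209954) had 67.1 TPM in sgPKA and 37.5 TPM in sgALKBH5, against 80.2 and 67.6 TPM in controls 1 and 2. Here the sgALKBH5 library was the lowest, at a difference of 0.82, and sgPKA lay beside control 2. Both transcripts were still counted in the library named for them, with 191 counts of PRKACA in sgPKA and 1608 counts of ALKBH5 in sgALKBH5. A messenger RNA level does not measure the protein left.

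**Figure D1:**
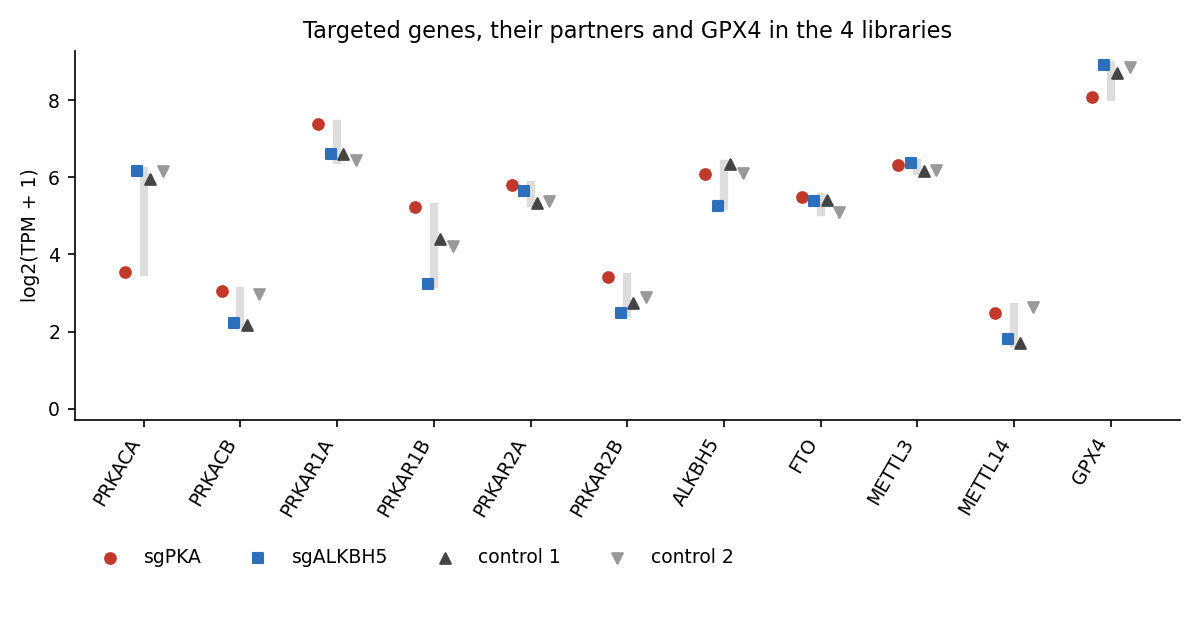
Level in log2(TPM + 1) of PKA subunits, ALKBH5, other m6A enzymes and GPX4, with 1 point per library and a grey bar over the range of the 4 libraries. PRKACA is low in sgPKA alone, PRKAR1A and PRKAR1B are highest there, ALKBH5 is lowest in sgALKBH5 and GPX4 is lowest in sgPKA.

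Most other PKA subunits stood higher in sgPKA. PRKAR1B, a regulatory subunit best known from neurons, had 36.6 TPM in sgPKA and 8.45 TPM in sgALKBH5, with 19.9 and 17.6 TPM in controls 1 and 2 between them, a difference of 1.99. PRKAR1A, the regulatory subunit most cells rely on, had 165 TPM in sgPKA and 97.0 TPM in sgALKBH5, against 96.3 and 86.0 TPM in controls 1 and 2, so that sgPKA alone was high. PRKAR2B had 9.73 TPM in sgPKA and 4.62 TPM in sgALKBH5, with controls 1 and 2 at 5.65 and 6.42 TPM. The second catalytic subunit, PRKACB, had 7.28 TPM in sgPKA and 3.70 TPM in sgALKBH5, and the controls split, at 3.46 TPM in control 1 and 6.79 TPM in control 2. PRKAR2A differed by 0.16 on TPM and by -0.08 on normalised counts, so it has no set direction. Of 9 subunit and inhibitor genes compared, 7 were highest in sgPKA of the 4 libraries, as were 5188 of all 11629 genes compared. The median difference of the 9 was 0.73 beside 0.10 over all genes. With medians of genes of like GC content subtracted, that median was 0.32, and the differences were 0.34 for PRKAR1A, 0.52 for PRKAR2B, 0.32 for PRKACB and 2.17 for PRKAR1B.

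m6A genes other than ALKBH5 were close between the guides. METTL3 had 78.1 TPM in sgPKA and 81.8 TPM in sgALKBH5, and FTO, the other m6A eraser, had 43.5 TPM in sgPKA and 41.0 TPM in sgALKBH5. METTL14 had 4.58 TPM in sgPKA and 2.51 TPM in sgALKBH5, between controls 1 and 2 at 2.24 and 5.26 TPM, which span both guides. Among 22 writers, erasers and readers, 16 were highest in sgPKA, as were 5188 of all 11629 genes compared. The median difference of the 22 was 0.31, or 0.16 with medians of genes of like GC content subtracted. YTHDF3, a cytoplasmic m6A reader at 40.4 TPM in sgPKA and 19.5 TPM in sgALKBH5, was at least 2-fold higher on TPM (4.55% of the list, beside 5.68% of all genes), and on normalised counts 0 of the list were. GPX4, the enzyme that reduces lipid peroxides, had 269 TPM in sgPKA and 482 TPM in sgALKBH5, against 419 and 464 TPM in controls 1 and 2. It was lowest in sgPKA, at a difference of -0.84.

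Over all genes compared, 661 (5.68%) were at least 2-fold higher in sgPKA than in sgALKBH5 and 824 (7.09%) were at least 2-fold lower, on the scale of log2(TPM + 1), which understates folds of low genes. The lower side held the larger differences. At least 4-fold, 68 genes were higher and 301 lower in sgPKA, and at least 16-fold, 9 were higher and 43 lower. On counts normalised by TMM, a scaling by library composition, 568 (4.88%) were at least 2-fold higher and 934 (8.03%) lower, and 491 higher and 779 lower genes passed on both scales. The split turned toward lower genes with TPM rescaled to a median difference of 0 (480 higher, 930 lower) and with medians of genes of like GC content subtracted (405 higher, 845 lower). The median over all genes was 0.10 on TPM and -0.00 on normalised counts, so small differences on TPM lean toward sgPKA.

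**Figure D2:**
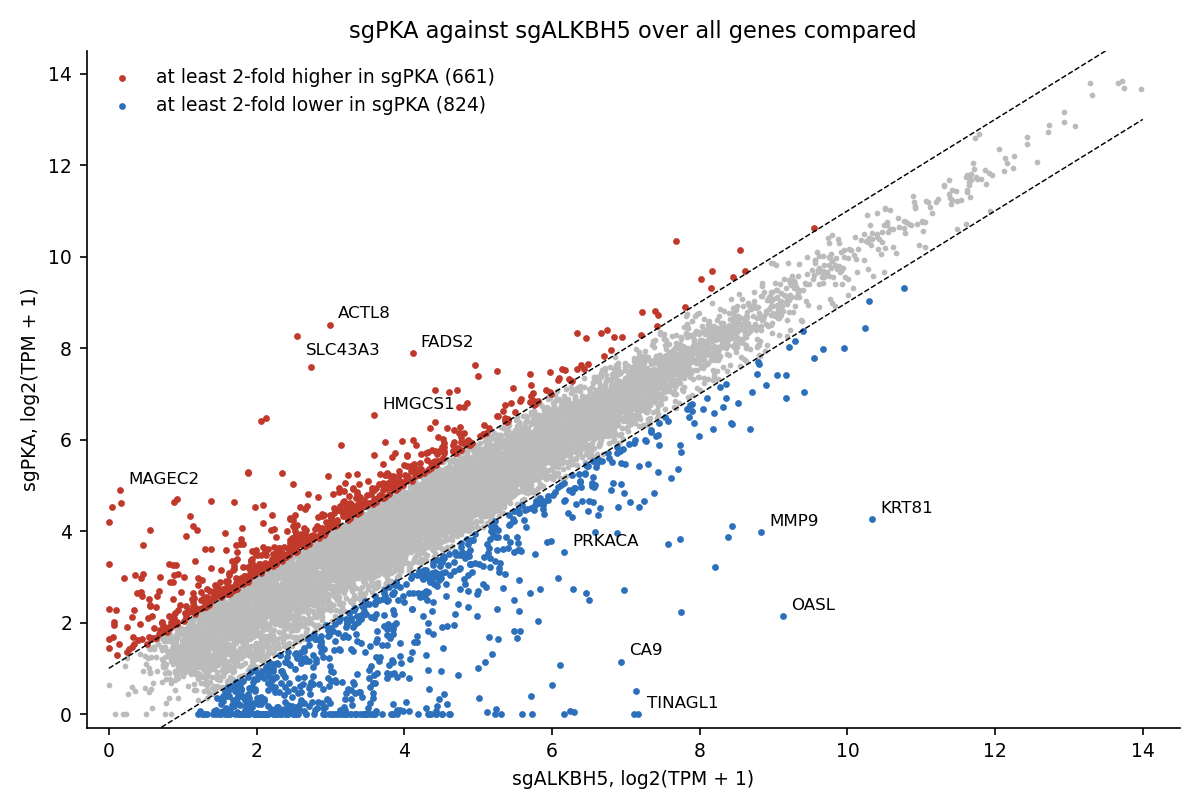
Level of each gene compared, with log2(TPM + 1) in sgPKA on the vertical axis and in sgALKBH5 on the horizontal axis, and dashed lines at a 2-fold difference. The 824 lower genes reach down to 0 in sgPKA, while the 661 higher genes mostly lie near the line.

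Several of the largest differences were genes well counted in sgALKBH5 with few or no counts in sgPKA. TINAGL1, a secreted matrix-associated protein (chromosome 1, 31576515 to 31587686), had 0 TPM in sgPKA and 143 TPM in sgALKBH5, with 52.1 TPM in control 1 and 0.052 TPM in control 2. With 0 counts in sgPKA against 4311 in sgALKBH5, it was at least 844-fold lower in sgPKA, a bound set against a floor of 3 counts in that library. Floors and counting intervals cover counting error only. The controls split between the guides, control 1 beside sgALKBH5 and control 2 beside sgPKA.

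Among the 15 largest lower genes, control 1 lay nearer sgALKBH5 and control 2 nearer sgPKA in 10. NEFL, the light neurofilament, had 0.038 TPM in sgPKA and 77.4 TPM in sgALKBH5, while control 1 had 60.1 TPM and control 2 had 2.49 TPM. TES, a focal adhesion protein, had 0.050 TPM in sgPKA and 74.7 TPM in sgALKBH5, against 76.1 and 2.15 TPM in controls 1 and 2. Each rested on 1 count in sgPKA, and the ratio of sgALKBH5 to sgPKA in normalised counts had an exact 95% interval from 399 to 87989 for NEFL. ITM2C, a membrane protein, had 0.413 and 140 TPM in sgPKA and sgALKBH5, and FPR1, a receptor for formylated peptides, had 0.314 TPM in sgPKA and 51.8 TPM in sgALKBH5. CHST15 (a chondroitin sulfate sulfotransferase), IGFBP2 (an insulin-like growth factor binder) and F8A1 had 0 counts in sgPKA, with 51.9, 47.3 and 38.8 TPM in sgALKBH5. F8A1 has near-identical copies, so its own level is uncertain. HBE1, the embryonic beta-type globin, had 3.69 TPM in sgPKA and 213 TPM in sgALKBH5, with 186 TPM in control 1 and 32.5 TPM in control 2.

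For TRBC2, BEX1 and MAGEA1 both controls lay at least 2-fold from both guides. TRBC2, annotated as a T-cell receptor constant gene, had 0 TPM in sgPKA and 137 TPM in sgALKBH5, with 60.2 and 5.32 TPM in controls 1 and 2, while CD3E of T cells was at most 0.161 TPM in all libraries. BEX1, a small adaptor-like protein, had 0 TPM in sgPKA and 70.9 TPM in sgALKBH5, with controls 1 and 2 at 28.1 and 15.6 TPM. MAGEA1, an antigen normally kept to the testis, had 0.556 TPM in sgPKA and 63.2 TPM in sgALKBH5, with controls 1 and 2 at 15.1 and 15.98 TPM. In each, sgPKA was below both controls and sgALKBH5 above them.

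Control 2 lay nearer sgPKA than sgALKBH5 in 13 of the 15 largest higher genes, and in 9 of them control 1 lay nearer sgALKBH5. SLC43A3, a nucleobase transporter (chromosome 11, 57406954 to 57427580), had 307 TPM in sgPKA and 4.86 TPM in sgALKBH5, against 130 and 232 TPM in controls 1 and 2. It was sgALKBH5 that stood apart, at a difference of 5.71. ACTL8, an actin-like cancer-testis gene, had 364 TPM in sgPKA and 6.95 TPM in sgALKBH5, and the controls lay at opposite ends, 16.8 TPM in control 1 and 479 TPM in control 2. IL24, a cytokine of the interleukin-10 family, had 191 TPM in sgPKA and 5.66 TPM in sgALKBH5, against 13.9 and 333 TPM in controls 1 and 2.

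Likewise MAGEC2, another testis antigen, had 28.9 TPM in sgPKA and 0.110 TPM in sgALKBH5, while control 1 had 0.355 TPM and control 2 had 22.2 TPM. SIGLEC15, a sialic acid receptor, had 83.2 and 3.17 TPM in sgPKA and sgALKBH5, against 3.37 and 70.8 TPM in controls 1 and 2, and GJB2, which encodes connexin 26, had 22.2 TPM in sgPKA and 0.032 TPM in sgALKBH5, against 0.177 and 18.9 TPM in controls 1 and 2. In MAGEC2, SIGLEC15 and GJB2 control 1 sat with sgALKBH5 and control 2 with sgPKA. In ZNF185, NECTIN4 (a cell adhesion molecule), SHANK1 (a scaffold of synapses) and ACP7, with differences from 3.40 to 4.44, sgPKA was highest, then control 2, control 1 and sgALKBH5, and control 1 lay a little nearer sgPKA than sgALKBH5 in ZNF185 and ACP7.

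Some genes were exceptions. FADS2, the delta-6 desaturase of polyunsaturated fatty acids, had 237 TPM in sgPKA and 16.3 TPM in sgALKBH5, with 177 and 180 TPM in controls 1 and 2, so that sgALKBH5 alone was low. NUPR1, a stress-induced nuclear protein, had 25.2 TPM in sgPKA and 0.905 TPM in sgALKBH5, with 0.942 and 2.08 TPM in controls 1 and 2, so that sgPKA alone was high. PLD1, a phospholipase, differed by 4.34 on TPM but by 1.31 on normalised counts, with 318 counts in sgPKA and 204 in sgALKBH5, so its size depends on the unit. TM4SF19-DYNLT2B is a readthrough of neighbouring genes and its level is uncertain.

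Among abundant genes, chosen after their values were seen, ODC1, the first enzyme of polyamine synthesis, had 1306 TPM in sgPKA and 204 TPM in sgALKBH5, with 404 and 635 TPM in controls 1 and 2 between them. SQSTM1, an autophagy receptor, had 1591 TPM in sgPKA and 747 TPM in sgALKBH5, against 754 and 814 TPM in controls 1 and 2, and was high in sgPKA alone.

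The controls were used to place each difference. Of the 1485 genes (12.8%) at least 2-fold apart between the guides in either direction, 925 (62.3%) had both controls between the guides. This was so for 2970 of all 11629 genes compared, and choosing genes by a wide gap between the guides raises the share by itself. In 502 both controls lay nearer sgALKBH5 and in 204 both lay nearer sgPKA. In 714 (48.1%) control 1 lay nearer sgALKBH5 and control 2 nearer sgPKA, and in 65 (4.38%) the reverse held. Only in 16 genes were both guides at least 2-fold from both controls in opposite directions, while in 209 sgPKA alone was at least 2-fold from both, in 134 sgALKBH5 alone was, and in 1126 (75.8%) neither was.

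**Figure D3:**
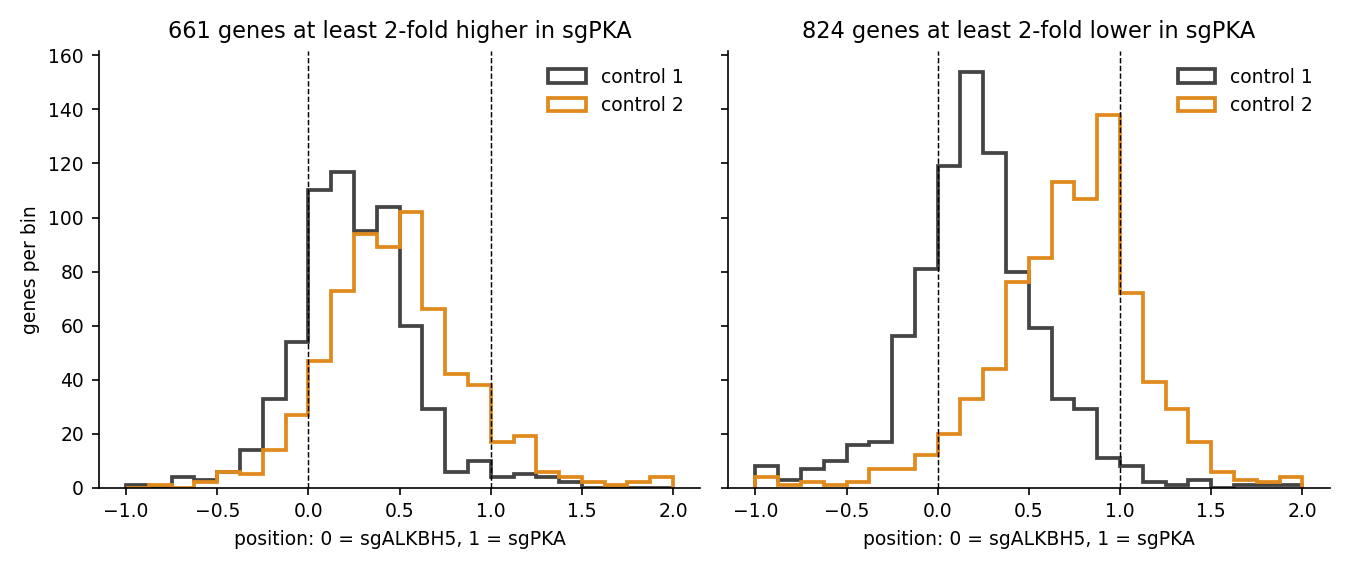
Position of each control between the guides, where 0 is the level of sgALKBH5 and 1 that of sgPKA on log2(TPM + 1), for the 661 genes higher (left) and the 824 genes lower (right) in sgPKA, with positions beyond -1 and 2 set to those ends. Among lower genes control 1 gathers near sgALKBH5 (median 0.20) and control 2 near sgPKA (median 0.76), whereas among higher genes the medians are 0.24 and 0.47.

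The controls also differed from each other in the direction of the guides. Control 2 lay below control 1 in 728 of the 824 genes lower in sgPKA (88.3%) and above it in 463 of the 661 genes higher in sgPKA (70.0%), beside a shared sign in 57.2% of all genes compared. Of the 745 genes at least 2-fold apart between the controls, 493 were also at least 2-fold apart between the guides, which is 66.2% of that list and 33.2% of the 1485. Counted pair by pair, sgPKA and sgALKBH5 were at least 2-fold apart in 1485 genes. The sgPKA library was so from control 1 in 1135 and from control 2 in 668, and sgALKBH5 from control 1 in 301 and from control 2 in 974. For those 493 genes the sgNC libraries give no common control level, and the labels do not say what separates these libraries. In the rest of the 1485 the controls lay within 2-fold of each other.

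The controls were ordered alike among genes with hardly any counts in 1 guide library. There were 47 genes with at most 3 counts in sgPKA and at least 10 TPM in sgALKBH5, and control 1 exceeded control 2 in 45 of them, with medians of 10.6 TPM in control 1 and 0.791 TPM in control 2. The reverse set held 4 genes (ACP7, GJB2, MAGEC2 and TM4SF19-DYNLT2B), all above 10 TPM in control 2 and none in control 1.

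A few genes placed the guides on opposite sides of both controls, at least 2-fold from each. MMP9, the gelatinase that cuts type IV collagen (chromosome 20, 46008908 to 46016561), had 14.8 TPM in sgPKA and 453 TPM in sgALKBH5, against 111 and 127 TPM in controls 1 and 2. MGMT, which repairs alkylated guanine in DNA, had 0 TPM in sgPKA and 18.9 TPM in sgALKBH5, against 5.12 and 4.78 TPM in controls 1 and 2. It was at least 64.4-fold lower in sgPKA by the floor of 3 counts. PPP2R2C, a regulatory subunit of protein phosphatase 2A, had 0.082 TPM in sgPKA and 37.0 TPM in sgALKBH5, with controls 1 and 2 at 9.15 and 3.39 TPM, and CGB8, a chorionic gonadotropin beta gene with close copies, had 0.460 TPM in sgPKA and 19.1 TPM in sgALKBH5. On the other side, CALB2, the calcium-binding protein calretinin, had 37.8 TPM in sgPKA and 2.69 TPM in sgALKBH5, with controls 1 and 2 at 9.76 and 14.8 TPM.

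Cholesterol and fatty acid synthesis genes had the highest median difference of the 35 lists. HMGCS1, which makes the substrate of the statin target, had 91.7 TPM in sgPKA and 11.1 TPM in sgALKBH5, with controls 1 and 2 at 24.6 and 27.8 TPM. MSMO1, a C4-methyl sterol oxidase of the same pathway, had 134 TPM in sgPKA and 20.4 TPM in sgALKBH5, with controls 1 and 2 at 47.1 and 59.5 TPM. In both the controls were close together and the guides lay at least 2-fold to either side. SCD, the stearoyl-CoA desaturase, had 443 and 148 TPM in sgPKA and sgALKBH5, with controls 1 and 2 at 204 and 216 TPM. ACLY, which makes cytosolic acetyl-CoA, differed by 0.32, at 265 TPM in sgPKA and 212 TPM in sgALKBH5.

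Of 35 cholesterol and fatty acid synthesis genes compared, 22 were at least 2-fold higher in sgPKA and 0 lower, and their median difference was 1.22 beside 0.10 over all genes, or 1.09 on normalised counts. In 28 sgPKA was the highest library, beside 5188 of all 11629 genes compared. In 26 sgALKBH5 was the lowest (2582 of all), and in 23 both controls lay between (2970 of all). The median was 0.86 against control 1 and 0.51 against control 2 for sgPKA, and it was 0.26 and 0.72 for control 1 and control 2 minus sgALKBH5. SQLE, the squalene epoxidase of this pathway that also stands on the ferroptosis list, had 104 TPM in sgPKA and 25.8 TPM in sgALKBH5, with controls 1 and 2 at 40.7 and 48.9 TPM.

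Most interferon-stimulated genes, 35 of 42, were lower in sgPKA than in sgALKBH5, and sgALKBH5 was the highest of the 4 libraries in 29. Of all 11629 genes compared, 4965 were lower in sgPKA and 2827 were highest in sgALKBH5. OASL, an antiviral protein induced by interferon, had 3.43 TPM in sgPKA and 557 TPM in sgALKBH5, while control 1 had 142 TPM and control 2 had 11.5 TPM. RSAD2, which encodes viperin, had 4.63 TPM in sgPKA and 89.4 TPM in sgALKBH5, against 30.5 and 1.89 TPM in controls 1 and 2, and CMPK2, its chromosome neighbour, had 0.264 TPM in sgPKA and 21.1 TPM in sgALKBH5, against 6.40 and 0.527 TPM in controls 1 and 2. In each, sgALKBH5 was the highest library, and control 2 lay nearer sgPKA than control 1 did. The most abundant members spread less, with IFITM3, which blocks viral entry, at 506 TPM in sgPKA and 887 TPM in sgALKBH5, and LGALS3BP at 526 TPM in sgPKA and 591 TPM in sgALKBH5.

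Of 42 such genes compared, 0 were at least 2-fold higher and 23 at least 2-fold lower in sgPKA, with a median of -1.18. The sgPKA library was the lowest of the 4 in 17, beside 2771 of all 11629 genes compared. Relative to control 2 the median for sgPKA was 0.11, and relative to control 1 it was -0.49, while control 2 minus control 1 was -0.70. Antigen presentation genes had a median of -0.72 over 19 genes, 4 of them at least 2-fold lower and 0 higher, or 7 lower on normalised counts. HLA-B had 19.9 TPM in sgPKA and 73.6 TPM in sgALKBH5, against 29.9 and 15.6 TPM in controls 1 and 2, and B2M, the light chain of class I molecules, had 1086 TPM in sgPKA and 1610 TPM in sgALKBH5, against 1039 and 644 TPM in controls 1 and 2. HLA genes share reads with near copies, so single HLA levels are uncertain.

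Promoters of 32 of these interferon-stimulated genes were found in RefSeq (GRCh38.p14, 250 bases before to 50 after the start, first listed start per gene). The core of the interferon-stimulated response element, TTTCNNTTT on either strand, was in 24 of them (75%), against 10.6% of 27305 RefSeq promoters and 7.10% of the promoters of genes compared. It was in 9.75% of the promoters of all genes at least 2-fold lower in sgPKA and in 10.1% of those at least 2-fold higher. The promoters of RSAD2 and CMPK2 held no match. Of the members with a match, the promoters of the 2 with the largest differences are shown. Both carry the element more than once, and capitals mark the matches. Both genes were chosen after their values were seen. IFITM1, another blocker of viral entry, had 1.47 TPM in sgPKA and 35.5 TPM in sgALKBH5, against 66.7 and 7.05 TPM in controls 1 and 2. BST2, the protein tetherin that holds budding virus at the membrane, had 4.62 TPM in sgPKA and 43.7 TPM in sgALKBH5, against 8.92 and 17.2 TPM in controls 1 and 2. The first lies at chr11:313790-314089 on the plus strand and the second at chr19:17405581-17405880 on the minus strand.
IFITM1: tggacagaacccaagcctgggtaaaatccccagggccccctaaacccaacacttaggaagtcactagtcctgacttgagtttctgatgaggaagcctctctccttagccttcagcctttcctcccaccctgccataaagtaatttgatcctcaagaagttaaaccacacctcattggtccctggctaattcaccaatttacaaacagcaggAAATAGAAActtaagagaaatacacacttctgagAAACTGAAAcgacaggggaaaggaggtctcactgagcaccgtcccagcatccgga
BST2: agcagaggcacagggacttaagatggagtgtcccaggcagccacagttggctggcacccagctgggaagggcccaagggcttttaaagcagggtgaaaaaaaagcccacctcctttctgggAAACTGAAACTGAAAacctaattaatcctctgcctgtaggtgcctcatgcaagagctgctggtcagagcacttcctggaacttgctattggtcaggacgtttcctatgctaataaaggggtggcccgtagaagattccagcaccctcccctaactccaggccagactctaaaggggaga
In BST2 the matches overlap and read as 1 run. A match describes these letters and is not evidence that a factor was bound.

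Feedback genes and cytokines of NF-kB, a transcription factor of inflammation, were mostly lower in sgPKA, 24 of 31. ICAM1, an adhesion molecule for leukocytes, had 0.275 TPM in sgPKA and 31.4 TPM in sgALKBH5, against 4.09 and 0.172 TPM in controls 1 and 2. IL11, a cytokine of the interleukin-6 family, had 5.52 TPM in sgPKA and 125.4 TPM in sgALKBH5, against 69.9 and 17.6 TPM in controls 1 and 2, and IL6 had 1.01 TPM in sgPKA and 31.1 TPM in sgALKBH5, against 13.4 TPM in control 1 and 0 in control 2. IL1B, the most abundant member, ran the other way, with 1331 TPM in sgPKA and 933 TPM in sgALKBH5, both above controls 1 and 2 at 432 and 708 TPM. Of 31 genes compared, 1 was at least 2-fold higher and 15 lower, with a median of -0.995. The highest library was sgALKBH5 in 21, beside 2827 of all 11629 genes compared.

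The kappaB core GGNNTTTCC, searched on both strands, was in 12 of the 22 promoters found for this list (54.5%). It was in 6.26% of all RefSeq promoters and 6.76% of those of genes compared. The share was 7.86% for all genes at least 2-fold lower in sgPKA and 7.54% for those at least 2-fold higher. The promoter of ICAM1 at chr19:10270870-10271169, plus strand, is shown as the matched member with the largest difference, with the match in capitals.
ICAM1: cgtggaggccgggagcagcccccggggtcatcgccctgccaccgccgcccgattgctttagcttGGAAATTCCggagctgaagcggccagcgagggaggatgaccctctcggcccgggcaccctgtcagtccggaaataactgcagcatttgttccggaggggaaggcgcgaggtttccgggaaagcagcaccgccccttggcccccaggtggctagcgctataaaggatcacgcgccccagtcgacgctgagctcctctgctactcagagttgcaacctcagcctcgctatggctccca

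Hypoxia-inducible and glycolytic genes were lower in sgPKA nearly throughout. CA9, the carbonic anhydrase that marks hypoxic tumour cells, had 1.22 TPM in sgPKA and 121 TPM in sgALKBH5, against 89.9 and 17.7 TPM in controls 1 and 2. CA12, a related enzyme, had 0 TPM in sgPKA and 10.0 TPM in sgALKBH5, against 16.7 and 0.075 TPM in controls 1 and 2. PFKFB4, which sets the level of a glycolytic activator, had 19.6 TPM in sgPKA and 97.1 TPM in sgALKBH5, against 70.5 and 23.2 TPM in controls 1 and 2. In all of them sgPKA was lower than both controls.

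The glycolytic enzymes at the top of the scale differed by less, with GAPDH at 12939 TPM in sgPKA and 16176 TPM in sgALKBH5, against 15710 and 14785 TPM in controls 1 and 2, and ENO1 at 4323 TPM in sgPKA and 6093 TPM in sgALKBH5, against 5434 and 5901 TPM in controls 1 and 2. Over 38 genes, 36 were lower in sgPKA, 16 of them at least 2-fold and 0 higher at that fold, with a median of -0.90. The sgPKA library was the lowest in 27 and sgALKBH5 the highest in 29, beside 2771 and 2827 of all 11629 genes compared. The short hypoxia response core ACGTG was in 16 of 34 promoters (47.1%), against 21.6% of all RefSeq promoters and 27.3% of those of genes compared. It was less common among all genes at least 2-fold lower in sgPKA (22.0%) than among those at least 2-fold higher (27.1%). The promoters of CA12 and PFKFB4 lack it. The CA9 promoter at chr9:35673678-35673977, plus strand, carries it once on the opposite strand, marked in capitals.
CA9: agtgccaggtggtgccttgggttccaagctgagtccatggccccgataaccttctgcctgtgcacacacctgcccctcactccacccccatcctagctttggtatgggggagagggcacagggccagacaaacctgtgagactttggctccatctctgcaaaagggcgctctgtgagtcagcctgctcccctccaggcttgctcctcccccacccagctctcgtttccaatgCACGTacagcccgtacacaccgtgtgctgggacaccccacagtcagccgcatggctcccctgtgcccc

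Matrix genes showed the lowest median of the lists with more than 10 genes compared, at -1.33 over 33 genes, with 18 at least 2-fold lower and 0 higher in sgPKA. THBS1, a matricellular glycoprotein, had 16.3 TPM in sgPKA and 345 TPM in sgALKBH5, while control 1 had 526 TPM and control 2 had 13.3 TPM. TGFBI, a secreted matrix protein induced by TGF-beta, had 12.1 TPM in sgPKA and 188 TPM in sgALKBH5, against 203 and 31.5 TPM in controls 1 and 2, and COL12A1, a fibril-associated collagen, had 0 TPM in sgPKA and 13.1 TPM in sgALKBH5, against 8.45 and 0.791 TPM in controls 1 and 2. SPARC, a collagen-binding protein, had 635 TPM in sgPKA and 1742 TPM in sgALKBH5, against 2215 and 909 TPM in controls 1 and 2. In these control 1 lay nearer sgALKBH5 and control 2 nearer sgPKA, and LAMB3, a laminin chain, was abundant with no such order, at 857 TPM in sgPKA and 879 TPM in sgALKBH5, against 720 and 1146 TPM in controls 1 and 2.

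COL6A1, a chain of type VI collagen, was a different case, with 94.8 TPM in sgPKA and 293 TPM in sgALKBH5, against 115 TPM in each control. COL6A2, the neighbouring chain, had 111 TPM in sgPKA and 365 TPM in sgALKBH5, against 132 and 158 TPM in controls 1 and 2. Here sgALKBH5 alone was high. FN1, fibronectin, had 220 TPM in sgPKA and 745 TPM in sgALKBH5, against 1030 and 118 TPM in controls 1 and 2, while VIM, the filament protein of mesenchymal cells, was level at 7839 TPM in sgPKA and 7853 TPM in sgALKBH5. KRT81, a hair keratin with close paralogues, had 18.1 TPM in sgPKA and 1286 TPM in sgALKBH5, against 1300 and 283 TPM in controls 1 and 2, and KRT80 had 6.84 TPM in sgPKA and 66.6 TPM in sgALKBH5, against 75.2 and 23.8 TPM in controls 1 and 2. All 8 keratin and epithelial genes compared were lower in sgPKA, 4 at least 2-fold. The sgPKA library was the lowest in 7, beside 2771 of all 11629 genes compared.

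Ligands and antagonists of the BMP, activin and TGF-beta families were mostly lower in sgPKA, 20 of 26, with a median of -1.02. At least 2-fold, 3 were higher (11.5%) and 13 lower (50%), beside 5.68% and 7.09% of all genes. BMP7, a bone morphogenetic protein, had 0 TPM in sgPKA and 23.5 TPM in sgALKBH5, against 0.704 TPM in control 1 and 0 in control 2, so that it was high in sgALKBH5 alone. FST, the antagonist follistatin, had 10.3 TPM in sgPKA and 53.5 TPM in sgALKBH5, against 110 and 17.4 TPM in controls 1 and 2. GDF15, a stress cytokine of this family that p53 also induces, had 1123 TPM in sgPKA and 374 TPM in sgALKBH5, against 1586 and 1692 TPM in controls 1 and 2. It was low in sgALKBH5 alone.

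**Figure D4:**
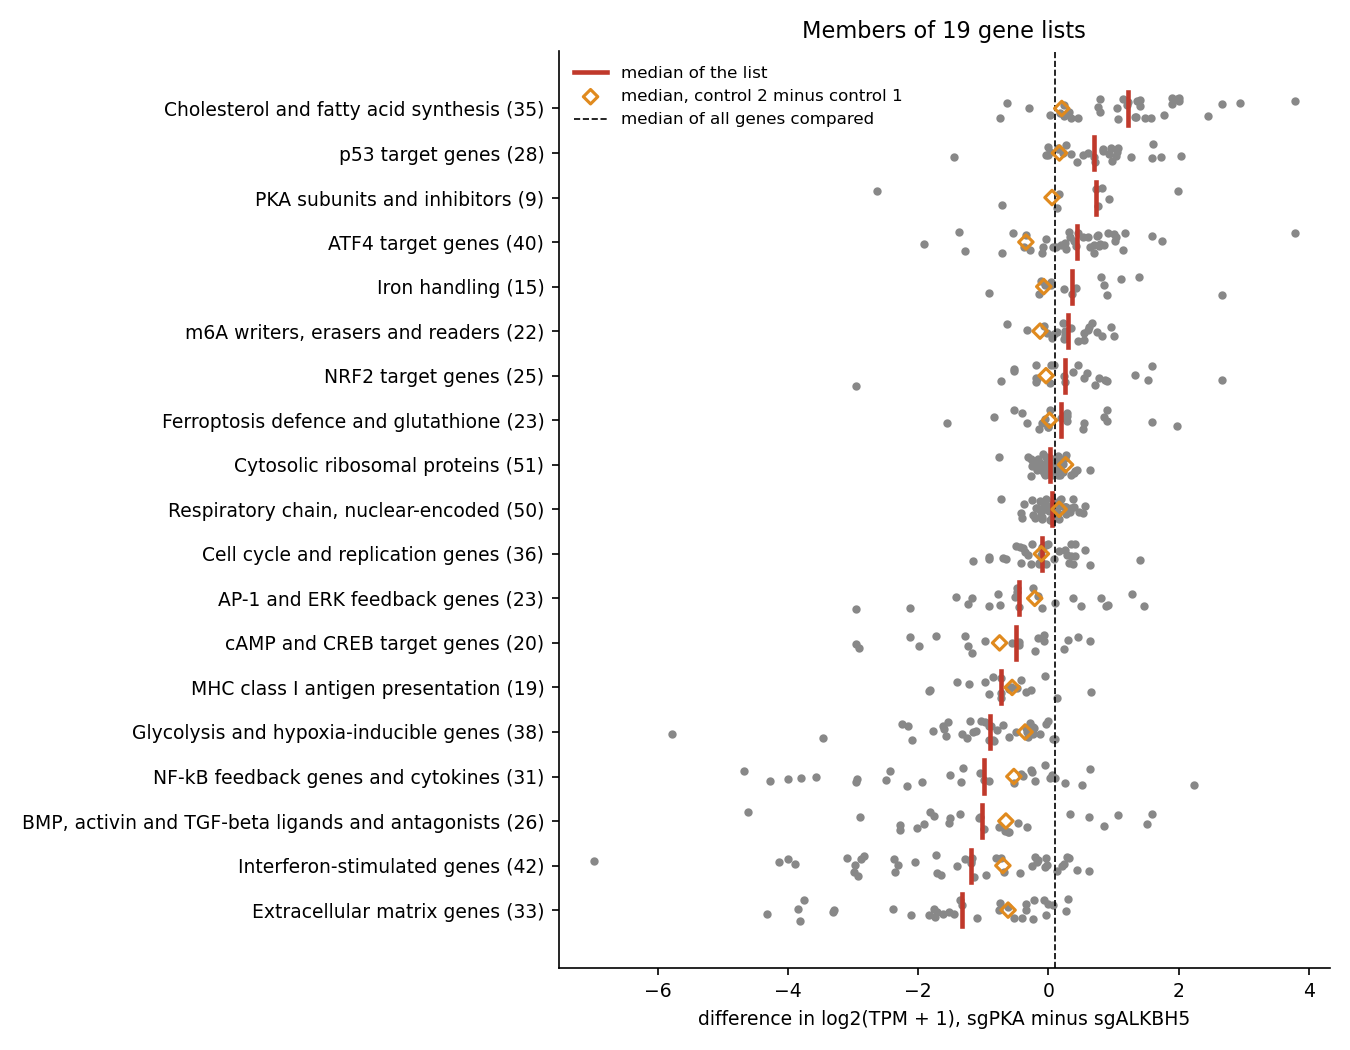
Difference in log2(TPM + 1), sgPKA minus sgALKBH5, for each gene compared of 19 lists (points, numbers in brackets), with the median of each list (red bar), the median of control 2 minus control 1 for the same list (diamond) and the median of all genes (dashed line). Sterol genes sit at a median of 1.22 with a control difference of 0.21, while matrix, interferon and NF-kB genes sit at -1.33, -1.18 and -0.995 with control differences of -0.62, -0.70 and -0.53.

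Immediate early genes that CREB and growth signals switch on were mostly lower in sgPKA. EGR1, a zinc finger transcription factor, had 3.90 TPM in sgPKA and 37.1 TPM in sgALKBH5, against 24.5 and 12.05 TPM in controls 1 and 2. FOSB had 0.879 TPM in sgPKA and 7.19 TPM in sgALKBH5, against 9.79 and 3.03 TPM in controls 1 and 2, and JUNB, its AP-1 partner, had 52.8 TPM in sgPKA and 120 TPM in sgALKBH5, against 96.4 and 59.5 TPM in controls 1 and 2. In these 3 sgPKA was the lowest library. KLF4, a pluripotency and growth control factor, had 0 TPM in sgPKA and 6.52 TPM in sgALKBH5, while control 1 had 7.13 TPM and control 2 had 0.098 TPM.

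Across 20 cAMP and CREB target genes 8 were at least 2-fold lower and 0 higher in sgPKA, with a median of -0.50. Their median for sgPKA was -0.52 against control 1 and 0.04 against control 2. The CREB element TGACGTCA, searched on both strands, was in 1 of 19 promoters found (5.26%). It was in 1.98% of all RefSeq promoters and 3.40% of those of genes compared. Among all genes at least 2-fold lower in sgPKA it was in 2.67%, and among those at least 2-fold higher in 1.74%. AP-1 and ERK feedback genes had a median of -0.44 over 23 genes, or -0.30 with medians of genes of like GC content subtracted. At least 2-fold, 2 were higher (8.70%) and 5 lower (21.7%), beside 5.68% and 7.09% of all genes. ETV1, an ETS factor, was among the higher at 18.7 TPM in sgPKA and 6.12 TPM in sgALKBH5, against 4.88 and 11.3 TPM in controls 1 and 2.

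HMOX1 and SLC7A11 differed within iron and oxidant lists that were close overall. HMOX1, which breaks down heme and frees its iron, had 196 TPM in sgPKA and 30.2 TPM in sgALKBH5, against 42.0 and 52.4 TPM in controls 1 and 2, and was high in sgPKA alone. SLC7A11, the cystine importer that feeds glutathione, had 11.03 TPM in sgPKA and 2.97 TPM in sgALKBH5, against 4.19 and 3.10 TPM in controls 1 and 2, also high in sgPKA alone. AIFM2, the ubiquinone reductase known as FSP1, had 8.19 TPM in sgPKA and 26.1 TPM in sgALKBH5, against 20.8 and 9.57 TPM in controls 1 and 2, with the controls split.

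The ferritin chains FTH1 and FTL, which store iron, had 6557 and 6148 TPM in sgPKA and 3504 and 3391 TPM in sgALKBH5, while control 1 had 4012 TPM of FTH1 and 3800 TPM of FTL and control 2 had 4413 TPM of FTH1 and 6142 TPM of FTL. FTH1 was thus highest in sgPKA, and FTL was level between sgPKA and control 2. ACSL4, which primes membrane lipids for peroxidation, had 26.7 TPM in sgPKA and 11.8 TPM in sgALKBH5, against 13.01 and 15.3 TPM in controls 1 and 2. Of 15 iron genes 3 were at least 2-fold higher in sgPKA and 0 lower, of 25 NRF2 targets 4 were higher and 1 lower, and of 23 ferroptosis defence genes 2 were higher (8.70%) and 1 lower (4.35%), where 5.68% of all genes were higher and 7.09% lower. Their medians of 0.37, 0.26 and 0.19 lie near the 0.10 of all genes, and the last became -0.22 once medians of genes of like GC content were subtracted.

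Targets of p53 leaned toward sgPKA, with a median of 0.70 beside 0.10 over all genes, or 0.56 with medians of genes of like GC content subtracted. Of 28, 8 were at least 2-fold higher (28.6%) and 1 lower (3.57%), beside 5.68% and 7.09% of all genes. On normalised counts 5 were higher and 1 lower, with a median of 0.56, where 4.88% and 8.03% of all genes were higher and lower. TP53INP1, a p53-induced autophagy protein, had 13.1 TPM in sgPKA and 2.46 TPM in sgALKBH5, against 2.68 and 3.33 TPM in controls 1 and 2. FAS, a death receptor, had 27.8 TPM in sgPKA and 7.68 TPM in sgALKBH5, against 8.68 and 6.70 TPM in controls 1 and 2, and ZMAT3 had 48.8 TPM in sgPKA and 15.4 TPM in sgALKBH5, against 21.2 and 23.6 TPM in controls 1 and 2. In these 3 sgPKA was the highest library. CDKN1A, the cell cycle inhibitor p21, differed by 0.44, at 472 TPM in sgPKA and 349 TPM in sgALKBH5, against 406 and 511 TPM in controls 1 and 2.

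Amino acid stress genes under ATF4 gave a median of 0.44 over 40 genes, with 8 at least 2-fold higher and 3 lower in sgPKA. The sgPKA library was the highest in 28 of the 40, beside 5188 of all 11629 genes compared. On normalised counts 3 were higher and 3 lower (7.5% each), beside 4.88% and 8.03% of all genes, with a median of 0.33. ATF4 itself had 900 TPM in sgPKA and 525 TPM in sgALKBH5, against 683 and 449 TPM in controls 1 and 2. TRIB3, a pseudokinase that ATF4 induces, had 173 TPM in sgPKA and 51.0 TPM in sgALKBH5, against 76.8 and 70.1 TPM in controls 1 and 2, and STC2, a secreted glycoprotein, ran the other way at 31.7 TPM in sgPKA and 122 TPM in sgALKBH5, against 104 and 25.6 TPM in controls 1 and 2.

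Genes for translation and respiration were level between the guides. Of 51 cytosolic ribosomal protein genes 0 were at least 2-fold apart, with a median of 0.03 on TPM and -0.06 on normalised counts, and of 50 nuclear respiratory chain genes 0 were, with medians of 0.05 and -0.07. Both signs thus depend on the scaling. Of 36 cell cycle and replication genes 1 was at least 2-fold higher and 1 lower (2.78% each), fewer than the 5.68% and 7.09% of all genes. The higher one was PCNA, the sliding clamp of replication, at 448 TPM in sgPKA and 168 TPM in sgALKBH5, against 266 and 247 TPM in controls 1 and 2. The single lower one was MCM4, a helicase subunit, at 101 TPM in sgPKA and 227 TPM in sgALKBH5, against 231 and 105 TPM in controls 1 and 2.

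Genes of chromosome 20 separated by position. The widest gap between the starts of neighbouring genes compared, from 25673195 to 31514442 (GRCh38.p14), spans the centromere and divides 311 genes. Of the 107 genes before it, 94 were higher in sgPKA, 45 (42.1%) at least 2-fold higher and 4 lower, with a median of 0.91. Of the 204 genes after it, 184 were lower in sgPKA, 42 (20.6%) at least 2-fold lower and 2 higher, with a median of -0.60. On normalised counts the medians were 0.85 and -0.70, and after subtraction of medians of genes of like GC content 0.84 and -0.62.

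**Figure D5:**
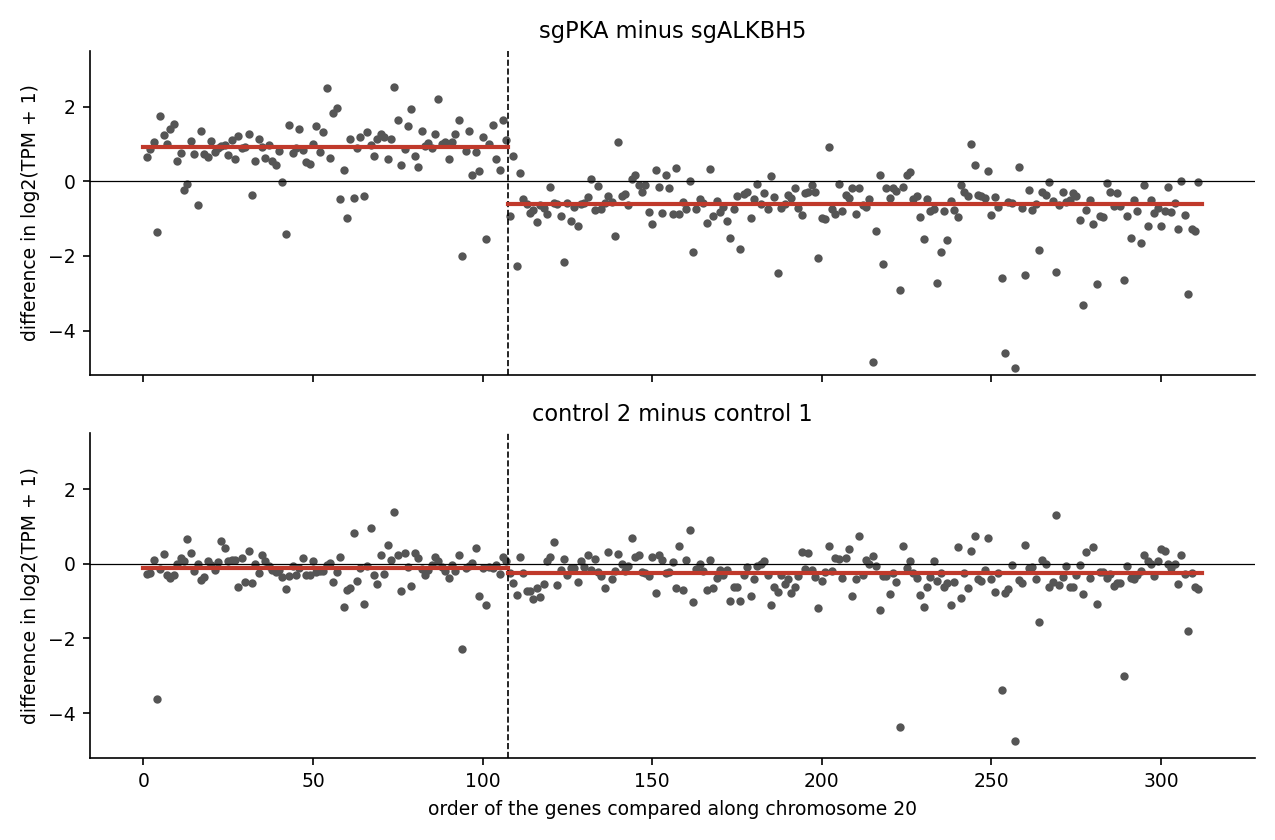
Difference in log2(TPM + 1) of each of the 311 genes compared on chromosome 20, in order along the chromosome, for sgPKA minus sgALKBH5 (top) and control 2 minus control 1 (bottom), with a dashed line at the widest gap and red lines at the medians of either side. The guides step between medians of 0.91 and -0.60, and the controls lie at -0.10 and -0.26.

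Other chromosome stretches lay closer to 0. Split in the same way, 42 stretches of the other chromosomes had medians from -0.30 to 0.40, with at most 15.4% of genes at least 2-fold higher and 12.7% lower. That leaves out the 7 genes before the widest gap on chromosome 15 and the 7 on chromosome 21. Their medians were 0.19 and 0.28, with 14.3% and 28.6% at least 2-fold higher and 0% and 14.3% lower. The widest gap does not span the centromere on every chromosome, as on chromosome 3, where it runs from 161221102 to 167683298. Some stretches thus pool parts of both arms, and steps between the arms of such chromosomes were not tested. In windows of 10 Mb along chromosome 20 the medians were 0.87, 1.02 and 0.998 before the gap and -0.60, -0.48, -0.54 and -0.80 after it, so the step lies at the gap. Before the gap both controls lay between the guides, with sgPKA 0.41 above control 1 and 0.42 above control 2 in the median, and with the controls 0.58 and 0.53 above sgALKBH5. After the gap sgPKA was -0.29 against control 1 and -0.01 against control 2, and the controls were -0.31 and -0.58 against sgALKBH5. DNA copy number was not measured in these libraries, and its part in the step was not tested.

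Abundant genes with wide gaps between the guides, chosen after the step was seen, show it on each side. Other abundant genes differed by less. SNRPB, before the gap, differed by 0.65, and EIF6, after it, by -0.10, at 600 TPM in sgPKA and 643 TPM in sgALKBH5. Before the gap, FKBP1A, the binding protein of the drug FK506, had 829 TPM in sgPKA and 391 TPM in sgALKBH5, against 564 and 695 TPM in controls 1 and 2, and PRNP, the prion protein, had 732 TPM in sgPKA and 258 TPM in sgALKBH5, against 304 and 243 TPM in controls 1 and 2. After the gap, GNAS, whose product is the stimulatory G protein subunit that raises cyclic AMP, had 765 TPM in sgPKA and 1301 TPM in sgALKBH5, against 940 and 880 TPM in controls 1 and 2. TGM2, a transglutaminase that crosslinks matrix proteins, had 345 TPM in sgPKA and 1210 TPM in sgALKBH5, against 976 and 491 TPM in controls 1 and 2. Of the genes described above, TRIB3 and PCNA lie before the gap and MMP9 and BMP7 after it. FERMT1, an integrin activator, also lies before it, with 22.9 TPM in sgPKA and 3.23 TPM in sgALKBH5, against 8.72 and 8.58 TPM in controls 1 and 2. Chromosome 20 held 47 of the 651 higher and 46 of the 821 lower genes with a known position.

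GC content moved with the differences and stands beside all of them. In the fifth of genes with the lowest GC content the median difference was 0.46, with 10.4% at least 2-fold higher and 2.97% lower, and in the fifth with the highest it was -0.17, with 3.45% and 11.2%. The median GC content was 48.4% over all genes compared, 50.2% for the sterol list, 47.6% for the interferon list, 52.0% for the matrix list and 52.0% for the hypoxia list. With medians of like GC content subtracted, these lists had medians of 1.18, -1.23, -1.18 and -0.80. The median of PKA subunits and inhibitors became 0.32 in place of 0.73, that of m6A genes 0.16 in place of 0.31, and that of ferroptosis defence genes turned sign.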

How the data were processed

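Messenger RNA of 4 HT-1080 libraries was captured on beads and sequenced, per the labels' protocols. RSEM, StringTie 1.3.1, HISAT2 2.1.0 and fastp 0.18.0 appear with the build GRCh38.p14 in the submitters' processing notes. The authors deposited TPM and expected counts per gene and library, with no further normalization of the counts, of which 10.6% to 12.7% per library are not whole, per the file headers and values. No source used here gives strand use or annotation release, so antisense, overlapping and near-identical genes are uncertain.

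Differences are log2(TPM + 1) of sgPKA minus sgALKBH5. Counts were also scaled with TMM (edgeR 4.0.16, R 4.3.3). Rounded counts entered fits of 3 groups with edgeR and DESeq2 1.42.0, with Benjamini-Hochberg adjustment at 0.05. The limma 3.58.1 fit of the same groups used log2(TPM + 1). In all of them each lone library is assumed to vary like the controls, and p-values measure only the spread between these samples. A control's position is its distance from sgALKBH5 over that of sgPKA. Floors of 3 counts equal 0.201 CPM in sgPKA and 0.118 CPM in sgALKBH5 after TMM.

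Always named were PKA subunits, ALKBH5, FTO, METTL3, METTL14 and GPX4, then the 15 largest differences each way with at least 10 TPM in a guide library, up to 5 each way with both guides 2-fold from both controls, and, per list, drawn from the 2 most abundant members and the 3 with the largest difference. Genes and 35 lists were chosen with earlier results of these data known. Alternatives are given in the closing section. Positions and promoters come from RefSeq, joined by symbol, and GC content was known for 99.8% of genes compared.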

Additional observations from a re-analysis of the deposited data

How the results depend on the processing

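The counts of 661 higher and 824 lower genes kept within 1.5 times under 11 of 15 alternatives each. A pseudocount of 5 gave 243 higher and 447 lower genes, a mean of at least 10 TPM gave 326 and 342, and a fold of at least 4 gave 68 and 301. A mean of at least 5 TPM gave 485 lower genes, and subtraction of GC medians, added after the data were seen, gave 405 higher genes. Fewer genes are tested under the stricter minimums. With either control left out of the filter, higher genes ran from 662 to 668 and lower genes from 798 to 857. Scaling moved the split, from 661 and 824 on TPM to 546 and 946 with DESeq2's size factors. The 925 genes with both controls between the guides became 1140 to 1183 when 1 control was used and 950 on normalised counts. DESeq2's Wald test called 311 genes where edgeR called 0, also with DESeq2's size factors (1531 at an unadjusted p under 0.05) and with no filter (1399), as did limma (1329), and the cause was not tested. Of the list medians under all alternatives, 126 stayed within the SD of the 2 controls, 51 went beyond it and 3 of at least 0.1 in size turned sign. Those 3 were of ferroptosis defence genes (-0.22 with GC medians subtracted) and metallothioneins (0.11 on TPM, -0.0116 on normalised counts and -0.0123 with counts under 3 set to 3), and single genes of that size that did so on normalised counts were PRKAR2A (-0.0777), MT-CO1 (-0.0121) and MT1X (-0.0116), the cause not tested. Smaller medians and genes, such as ribosomal proteins (0.03 on TPM, -0.06 on normalised counts), have no set sign. No paired analysis was possible because the guide libraries carry no replicate number. Without 1 control the edgeR fit has no residual degrees of freedom, so no such test was made. Depth limits low genes in sgPKA, where 3 counts equal 0.201 CPM.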

Other observations

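Stress chaperones and histones were not described above. HSPA5, the main chaperone of the endoplasmic reticulum, had 476 TPM in sgPKA and 784 TPM in sgALKBH5, against 706 and 438 TPM in controls 1 and 2, and none of 18 genes of the unfolded protein response reached 2-fold on TPM (1 was lower on normalised counts), with a median of -0.28, or -0.43 with GC medians subtracted. HSPA1A, an inducible heat shock protein with a near-identical copy, had 23.7 TPM in sgPKA and 93.4 TPM in sgALKBH5, against 81.5 and 18.997 TPM in controls 1 and 2, and SERPINH1, the collagen chaperone, had 98.1 TPM in sgPKA and 238 TPM in sgALKBH5, against 289 and 113 TPM in controls 1 and 2. Both followed the split of the controls. Of 20 histone genes compared, 18 were lower in sgPKA, 4 at least 2-fold, with a median of -0.51, and H1-2 had 59.0 TPM in sgPKA and 130 TPM in sgALKBH5, against 138 and 58.5 TPM in controls 1 and 2. Library preparation captures polyadenylated RNA, which replication histones mostly lack.

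Lysosomal genes as a list were close between the guides. CTSB, a cathepsin protease, had 936 TPM in sgPKA and 498 TPM in sgALKBH5, against 568 and 658 TPM in controls 1 and 2, and PSAP, the precursor of saposins, had 926 TPM in sgPKA and 510 TPM in sgALKBH5, against 658 and 769 TPM in controls 1 and 2, both highest in sgPKA. CTSZ, on chromosome 20 after the gap, had 58.2 TPM in sgPKA and 213 TPM in sgALKBH5, against 229 and 77.2 TPM in controls 1 and 2. Of 33 such genes 1 was at least 2-fold higher (3.03%) and 3 lower (9.09%), beside 5.68% and 7.09% of all genes, and the median was 0.20, or 0.06 on normalised counts and 0.08 with GC medians subtracted.

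The matrix metalloproteinases besides MMP9 did not share 1 order. MMP1, a collagenase, had 9.66 TPM in sgPKA and 27.2 TPM in sgALKBH5, while control 1 had 12.5 TPM and control 2 had 162 TPM. MMP14, which sits in the cell membrane, had 1355 TPM in sgPKA and 849 TPM in sgALKBH5, against 790 and 1047 TPM in controls 1 and 2, and PLAU, the urokinase, had 1690 TPM in sgPKA and 3107 TPM in sgALKBH5, against 1920 and 1533 TPM in controls 1 and 2. SSX2, a testis antigen whose values equal those of its copy SSX2B, had 0 TPM in sgPKA and 21.8 TPM in sgALKBH5, against 0.232 and 0.686 TPM in controls 1 and 2, and was high in sgALKBH5 alone.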
